A study of Mus musculus with 4 samples.

Results

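Genes for the ceramides and other lipids of the skin barrier were followed in ribosome profiling libraries of newborn mouse epidermis from Mettl14 conditional knockout and control mice. The genes were chosen by name: a list of 42 enzymes, transporters and cofactors of sphingolipid synthesis, fatty acid elongation, acylceramide assembly and ceramide turnover was matched to the rows of the deposited table by gene symbol. The table held 41 of the 42 among its 10327 genes, and Lipn was not analysed here. The material was epidermal keratinocytes taken at postnatal day 0, with 2 libraries from each genotype. Conditional knockout mice (cKO) had the genotype K14Cre,Mettl14F/F, in which both floxed copies of Mettl14 can be cut by Cre. Control mice (Ctrl) had the genotype K14Cre,Mettl14F/+, so they carried the same Cre transgene and 1 floxed copy, and cKO was compared with heterozygotes rather than with mice of 2 intact copies. The keratin 14 promoter drives Cre in basal keratinocytes and so in the layers that descend from them. Cells of other origin in the samples are not targeted. The labels do not say whether the libraries of a genotype came from different animals or whether animals were pooled, so the spread between libraries may be technical.

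Ceramide is built from serine and a fatty acyl chain to give a sphingoid base, which a ceramide synthase joins to another fatty acid. In the outer epidermis that fatty acid is elongated to an unusual length, hydroxylated at its far end and esterified to linoleate, which gives the acylceramides. These are loaded into lamellar granules, secreted at the border of the stratum corneum, oxidised by lipoxygenases and bound to the cornified envelope, and loss of many of the enzymes causes ichthyosis in humans. METTL14 is a subunit of the methyltransferase that places N6-methyladenosine on mRNA.

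A footprint is the stretch of mRNA that a ribosome shields from RNase, and the values are CPM (footprint reads of a gene, scaled so that all listed genes sum to 1000000 in a library). They therefore combine the amount of an mRNA with how densely ribosomes occupy it. In these bulk samples, fewer cells of a type and less RNA per cell cannot be told apart. The recovered reads totalled 542074 in cKO 1, 751948 in cKO 2, 933574 in Ctrl 1 and 624167 in Ctrl 2. Mettl14 had 5 and 4 reads in cKO 1 and cKO 2, against 26 and 17 in Ctrl 1 and Ctrl 2, so both cKO libraries were low, in the direction of their labels (limma, log2 change -1.83 ± 0.55, SE, adjusted p = 0.122); the table does not show in which exons these reads lie. Keratin genes of keratinocytes were abundant in all libraries, Krt10 at 55872 CPM in cKO 1 and 54568 CPM in cKO 2, against 35677 CPM in Ctrl 1 and 36820.3 CPM in Ctrl 2. Marker lists of other cell types differed between libraries: summed fibroblast markers stood at 3123 and 2188 CPM in cKO 1 and cKO 2, against 6314 and 3948 CPM in Ctrl 1 and Ctrl 2, and red blood cell markers at 528 and 99.7 CPM, against 121 and 81.7 CPM. Of 13 fibroblast markers 3 were called lower by limma, 3 by edgeR with TMM and 2 by DESeq2. Of 6 red blood cell markers 0 passed limma (2 higher at an unadjusted p under 0.05 in limma), and 2 were called higher by edgeR with TMM. Hair follicle markers summed to 1308 and 1688 CPM in cKO 1 and cKO 2, against 2224 and 2624 CPM in Ctrl 1 and Ctrl 2, with 1 of 11 called lower by limma and 0 by edgeR with TMM (5 lower at an unadjusted p under 0.05 in limma). Of 8 immune and 8 melanocyte markers, 0 passed limma or edgeR with TMM, nor did any reach an unadjusted p under 0.05 in limma. DESeq2, which gave an adjusted p to 3119 genes only, called 0 of these last 4 lists. The part of these cells in the results below was not tested.

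METTL14 and its partner METTL3 methylate adenosines within a short consensus whose commonest core is GGACT in DNA letters. To show what the transcripts hold, 60-base stretches of coding sequence around the GGACT nearest the stop codon that lies with its window in 1 exon are given for 4 of the 5 genes that passed the test described below; no such window was found for Cyp4f39. They are read 5′ to 3′ along the mRNA from the GENCODE M21 transcripts (GRCm38), and capitals mark the core.
Degs1, chr1:182279578-182279637, minus strand: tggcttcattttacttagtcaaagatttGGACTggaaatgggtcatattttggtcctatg
Pnpla1, chr17:28881525-28881584, plus strand: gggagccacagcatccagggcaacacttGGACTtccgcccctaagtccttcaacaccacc
Alox12b, chr11:69165879-69165938, plus strand: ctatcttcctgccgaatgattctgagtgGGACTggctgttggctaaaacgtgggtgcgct
Smpd1, chr7:105557745-105557804, plus strand: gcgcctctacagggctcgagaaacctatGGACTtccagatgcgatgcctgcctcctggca
A coding GGACT was present in 31 of the 41 genes (75.6%), against 78.6% of the 10306 listed genes with a complete coding sequence, and within the last 300 coding bases in 13 of the 41 (31.7%), against 31.1%. The median density was higher in the 41 genes, at 1.59 GGACT per coding kilobase, against 1.08 in the listed genes. That difference was not tested. The search was of the given strand of the longest coding sequence only. A match is a run of letters and not a methylated site, and methylation itself was not analysed here. Elovl1 and Nipal4, which are described below, held none in the coding sequence searched.

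Across the barrier lipid genes, ribosome footprints were mostly more abundant in cKO than in Ctrl keratinocytes, and the genes that rose encode a desaturase, an acyl chain hydroxylase, a transacylase, a lipoxygenase and a sphingomyelinase. The 41 genes together took 17450 CPM in cKO 1 and 17984 CPM in cKO 2, against 10961 CPM in Ctrl 1 and 12859 CPM in Ctrl 2, or 17717 ± 378 CPM in cKO and 11910 ± 1342 CPM in Ctrl (SD, n = 2 each). Degs1, Cyp4f39, Pnpla1, Alox12b and Smpd1 rose (limma over all 10327 genes, Benjamini-Hochberg adjusted p under 0.05), none fell and 36 did not pass. Among all genes 0.368% were called higher and 0.3% lower. At an unadjusted p under 0.05 in limma, 20 of the 41 had a positive change and 0 a negative one. Of all 10327 genes, 361 had a positive change and 1114 a negative one at that level. On the recovered reads, 0 of the 41 were called lower by edgeR with TMM, or by DESeq2 among the 31 to which it gave an adjusted p. Few genes were called lower at all, 13 of 10327 by edgeR with TMM and 4 of 3119 by DESeq2. The 0 therefore says little about the 41. The log2 change was positive in 33 and negative in 8 of the 41 genes, with a median of 0.67, against a median of -0.24 for all genes. For 23 of the 41 genes each cKO library exceeded each Ctrl library, where 11.1% of all genes did so, and for 2 genes (Cers5 and Hacd3) each was below, where 34.1% of all genes were.

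The number of genes called depended on the scaling and on single libraries. edgeR with TMM, which places the median gene near a change of 0, called 18 of the 41 higher (1.58% of all genes), and DESeq2 called 11 of the 31 to which it gave an adjusted p, where it called 2.66% of the 3119 genes that had one. edgeR scaled by library totals, as CPM are, called 6 (0.6% of all genes), and limma after dividing each library by its median gene called 14 (1.04% of all genes). The median of all genes was -0.24 on the CPM scale, -0.04 after that division and 0.00 with TMM. Without cKO 1 or without cKO 2, limma called no gene of the whole table (smallest adjusted p = 0.532 and 0.552, with 940 and 928 genes at an unadjusted p under 0.05), while 15 and 10 of the 41 genes were higher at that unadjusted level. Without Ctrl 1, 2 of the 41 were called (Alox12b and Nipal4), and without Ctrl 2, 8 were called (0.194% and 1.01% of all genes). Leaving out 1 library at a time, the median of the 41 genes ran from 0.72 to 0.99 above that of all genes, against 0.92 with all libraries.

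**Figure D1:**
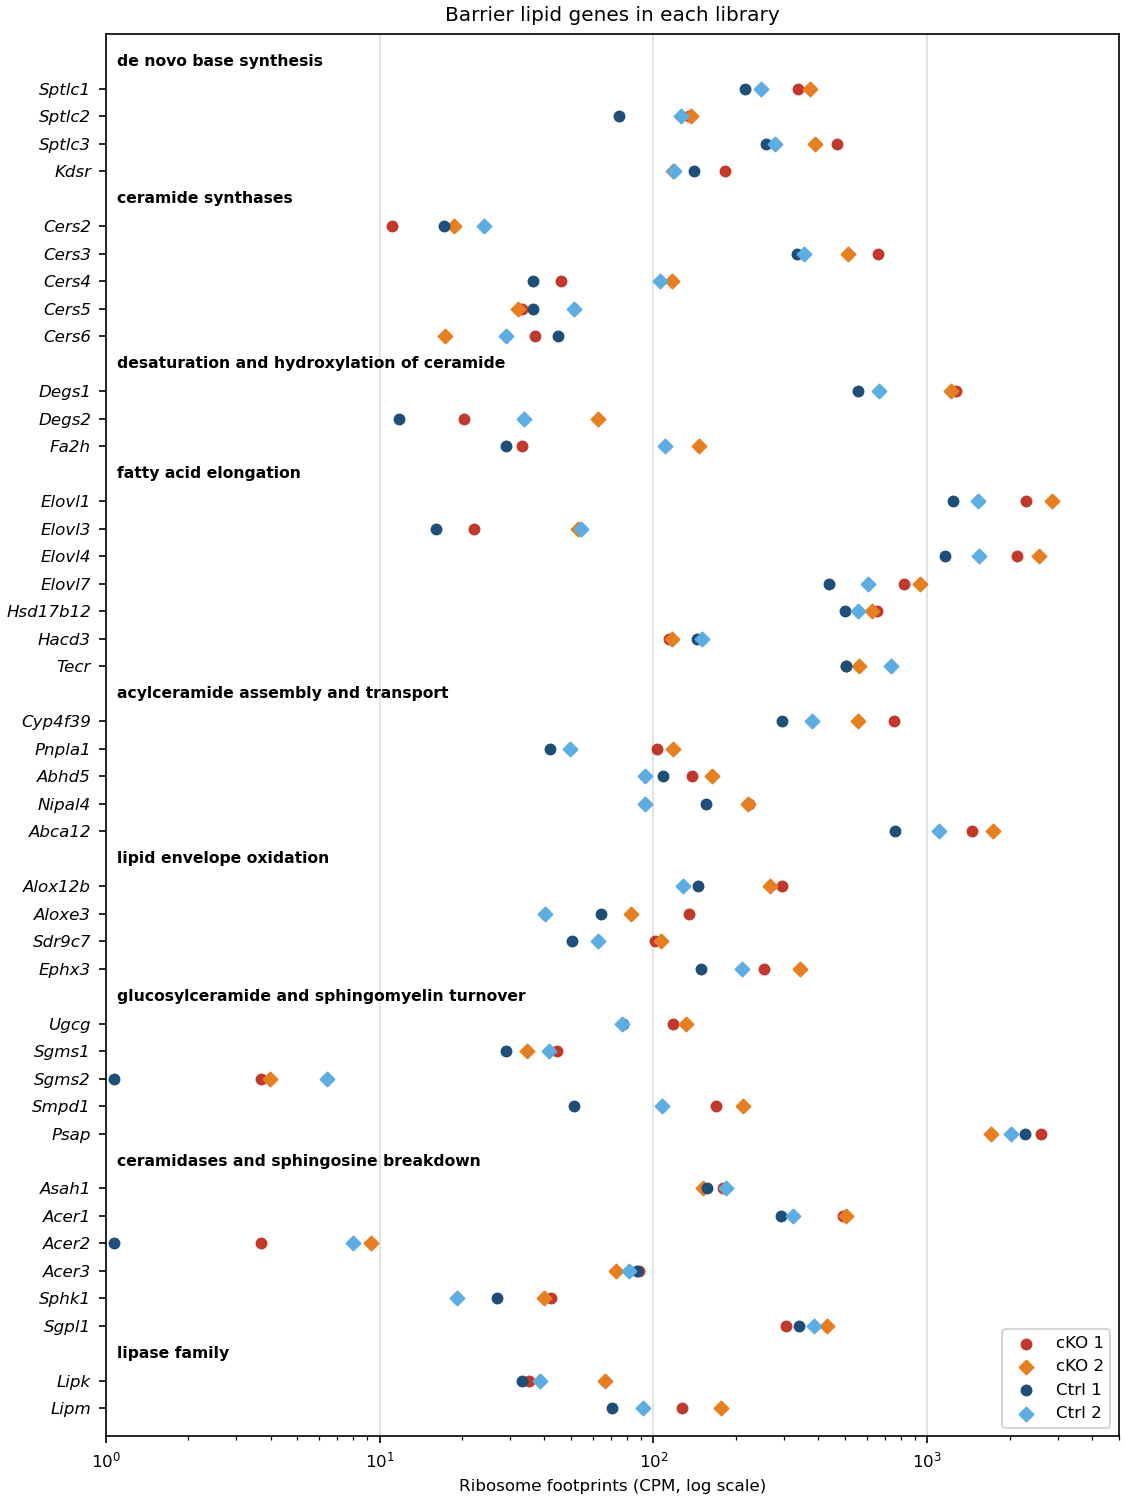
Footprints of the 41 barrier lipid genes in each library (CPM, log axis), grouped by role; reds and oranges are cKO libraries and blues are Ctrl libraries, with circles for replicate 1 and diamonds for replicate 2. In the acylceramide and lipid oxidation groups all points of cKO lie to the right of those of Ctrl, whereas both replicate 2 points of Fa2h, Cers4, Elovl3 and Degs2 lie to the right of both replicate 1 points.

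The first steps of ceramide synthesis were covered by 4 genes, none of which passed the test. Serine palmitoyltransferase, which joins serine to a fatty acyl-CoA, pairs the subunit SPTLC1 with SPTLC2 or SPTLC3. Sptlc1 had 336 CPM in cKO 1 and 374 CPM in cKO 2, against 215 CPM in Ctrl 1 and 247 CPM in Ctrl 2. Sptlc3, the subunit able to use shorter acyl chains, had 469 CPM in cKO 1 and 389.7 CPM in cKO 2, against 257 CPM in Ctrl 1 and 279 CPM in Ctrl 2. Both genes were higher in each cKO library than in either Ctrl library, with log2 changes of 0.62 ± 0.21 (SE, adjusted p = 0.178) and 0.67 ± 0.21 (SE, adjusted p = 0.145) in limma. edgeR with TMM called both higher, whereas DESeq2 (adjusted p = 0.0930 for Sptlc1 and 0.0561 for Sptlc3) and edgeR with library totals called neither. Sptlc2 had 135 CPM in cKO 1 and 137 CPM in cKO 2, against 75.0 CPM in Ctrl 1 and 127 CPM in Ctrl 2, so that Ctrl 2 lay close to the cKO libraries and the change of 0.47 ± 0.27 (SE, adjusted p = 0.440) did not pass limma. Kdsr, which reduces the ketone of the new base, had 183 CPM in cKO 1 and 118 CPM in cKO 2, against 140.3 CPM in Ctrl 1 and 119 CPM in Ctrl 2. Its libraries overlapped (limma, log2 change 0.19 ± 0.26, SE, adjusted p = 0.784). Per kilobase of coding sequence, Sptlc3 exceeded Sptlc2 by 3.46 and 2.83 times in cKO 1 and cKO 2, against 3.41 and 2.19 times in Ctrl 1 and Ctrl 2, and the ratio overlapped between genotypes.

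Of the 5 ceramide synthases none passed limma, and Cers3 was the most abundant and had the largest positive change. CERS3 is the synthase that accepts the ultra-long fatty acids of epidermal ceramides. Cers3 had 660.4 CPM in cKO 1 and 512 CPM in cKO 2, against 334 CPM in Ctrl 1 and 356 CPM in Ctrl 2. The groups of Cers3 did not overlap, although the log2 change of 0.75 ± 0.21 (SE, adjusted p = 0.0976) did not pass limma; edgeR with TMM and DESeq2 called it higher, and edgeR with library totals did not (adjusted p = 0.0939). Cers2, which makes very-long-chain ceramides in many tissues, was low, with 6 and 14 reads in cKO 1 and cKO 2, against 16 and 15 in Ctrl 1 and Ctrl 2. Cers5, which prefers shorter acyl chains, had 33.2 CPM in cKO 1 and 31.9 CPM in cKO 2, against 36.4 CPM in Ctrl 1 and 51.3 CPM in Ctrl 2. Cers6, of like preference, ran from 17.3 to 45.0 CPM. Only Cers5 of these was lower in both cKO libraries than in both Ctrl libraries. All 3 had negative changes that did not pass, -0.47 ± 0.52 (SE, adjusted p = 0.724) for Cers2, -0.40 ± 0.37 (SE, adjusted p = 0.667) for Cers5 and -0.49 ± 0.44 (SE, adjusted p = 0.646) for Cers6 in limma, and their 95% intervals all reached above 0. Cers4 had 46.1 CPM in cKO 1 and 117 CPM in cKO 2, against 36.4 CPM in Ctrl 1 and 106 CPM in Ctrl 2, so replicate 2 of each genotype exceeded replicate 1. Within a library and per coding kilobase, Cers3 exceeded Cers2 by 54.1 and 24.9 times in cKO 1 and cKO 2, against 17.7 and 13.4 times in Ctrl 1 and Ctrl 2, a ratio that rests on the few Cers2 reads. Cers3 exceeded Cers4 by 13.4 and 4.10 times in cKO 1 and cKO 2, against 8.61 and 3.15 times in Ctrl 1 and Ctrl 2, and this ratio overlapped between genotypes. Exons of Cers2 overlap those of Setdb1 on the opposite strand, so reads of the 2 genes may be mixed.

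Degs1 rose and had the smallest adjusted p of the 41 genes. It encodes the desaturase that turns dihydroceramide into ceramide. Degs1 (ENSMUSG00000038633, chromosome 1, 182275772 to 182282804, minus strand, GRCm38) had 1277 CPM in cKO 1 and 1222 CPM in cKO 2, against 558 CPM in Ctrl 1 and 665 CPM in Ctrl 2. The cKO libraries were close together and well above the Ctrl libraries, at 1249 ± 38.5 CPM in cKO and 611 ± 75.5 CPM in Ctrl (SD, n = 2 each), a log2 change of 1.03 ± 0.20 (SE, adjusted p = 0.0196) in limma. Among the 5 genes that rose it was the 1 still called when the genes tested were limited to those of 10 CPM or more in at least 2 libraries (limma, adjusted p = 0.0411; 0.169% of those genes were called higher). Without Ctrl 1 it did not pass limma (log2 change 0.91, adjusted p = 0.109). Degs2, whose product also hydroxylates the base to give phytoceramide, had 20.3 CPM in cKO 1 and 62.5 CPM in cKO 2, against 11.8 CPM in Ctrl 1 and 33.6 CPM in Ctrl 2. Fa2h, the hydroxylase of the acyl chain, had 33.2 CPM in cKO 1 and 146 CPM in cKO 2, against 28.9 CPM in Ctrl 1 and 111 CPM in Ctrl 2. In both genes replicate 2 exceeded replicate 1 in each genotype and the genotypes overlapped, with log2 changes of 0.81 ± 0.53 (SE, adjusted p = 0.512) for Degs2 and 0.30 ± 0.52 (SE, adjusted p = 0.832) for Fa2h in limma. Degs2 shares exonic sequence with Evl on the opposite strand.

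Fatty acid elongation takes a condensing enzyme of the ELOVL family and then a reductase, a dehydratase and a second reductase. Footprints of the 7 listed genes differed in their changes, also among the condensing enzymes. ELOVL1 and ELOVL4 extend saturated chains to very long and ultra-long length, and their genes had the highest means of the 41 per kilobase in both genotypes, although Psap exceeded Elovl4 in Ctrl 1. Elovl1 had 2300.4 CPM in cKO 1 and 2842 CPM in cKO 2, against 1244 CPM in Ctrl 1 and 1532 CPM in Ctrl 2. Elovl4 had 2125 CPM in cKO 1 and 2553 CPM in cKO 2, against 1156 CPM in Ctrl 1 and 1541 CPM in Ctrl 2. Elovl7, another condensing enzyme, had 819 CPM in cKO 1 and 943 CPM in cKO 2, against 436 CPM in Ctrl 1 and 606 CPM in Ctrl 2. In all 3 the cKO libraries were above the Ctrl libraries without overlap, yet the changes of 0.89 ± 0.22 (SE, adjusted p = 0.0532), 0.80 ± 0.22 (SE, adjusted p = 0.0925) and 0.77 ± 0.21 (SE, adjusted p = 0.0945) did not pass limma, and edgeR with TMM and DESeq2 called all 3 higher. With library totals edgeR called Elovl1 (adjusted p = 0.0371) and not the other two. Exons of Elovl1 overlap those of the cell cycle gene Cdc20 on the opposite strand, so its reads may be mixed.

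The listed enzymes of the later elongation steps had smaller changes than Elovl1, Elovl4 and Elovl7. This does not hold for all genes of these steps. Outside the list, the dehydratase Hacd2 had a log2 change of 0.57 ± 0.30 (SE, adjusted p = 0.398) in limma, without overlap. The condensing enzymes Elovl5 and Elovl6, also outside it, had 0.02 ± 0.27 and 0.33 ± 0.38 (SE) with overlap. Hsd17b12, the ketoacyl reductase, had 653 CPM in cKO 1 and 629 CPM in cKO 2, against 499 CPM in Ctrl 1 and 558 CPM in Ctrl 2, with a log2 change of 0.28 ± 0.20 (SE, adjusted p = 0.553) in limma. Hacd3, a dehydratase, lay at 114 and 117 CPM in cKO 1 and cKO 2, below 145 and 151 CPM in Ctrl 1 and Ctrl 2, with a log2 change of -0.35 ± 0.24 (SE, adjusted p = 0.540) that did not pass limma. Tecr, the enoyl reductase of the last step, had 504 CPM in cKO 1 and 565 CPM in cKO 2, against 505 CPM in Ctrl 1 and 734 CPM in Ctrl 2. Its libraries overlapped, and its change was -0.19 ± 0.22 (SE, adjusted p = 0.735) in limma, with a sign that turned positive once libraries were scaled by their median gene, by TMM or by DESeq2. Per kilobase of coding sequence, Elovl4 exceeded Tecr by 4.90 and 5.24 times in cKO 1 and cKO 2, against 2.66 and 2.44 times in Ctrl 1 and Ctrl 2. This ratio is taken within a library, so it does not depend on the scaling between libraries, and it was higher in both cKO libraries. Elovl4 to Elovl1, by contrast, was 0.826 and 0.803 in cKO 1 and cKO 2, against 0.831 and 0.900 in Ctrl 1 and Ctrl 2. Elovl3, best known from sebaceous glands and hair follicles, ran from 16.1 to 54.5 CPM over the libraries (limma, log2 change 0.20 ± 0.50, SE, adjusted p = 0.888).

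All 5 genes of acylceramide assembly and transport were higher in both cKO libraries than in both Ctrl libraries, where 11.1% of all genes were. Of these, 2 rose, Cyp4f39 and Pnpla1, where limma called 0.368% of all genes higher. CYP4F39 is the mouse counterpart of human CYP4F22, which hydroxylates the far end of the ultra-long acyl chain. Cyp4f39 (ENSMUSG00000061126, chromosome 17, 32452723 to 32493320, plus strand) had 756 CPM in cKO 1 and 559 CPM in cKO 2, against 295 CPM in Ctrl 1 and 379.7 CPM in Ctrl 2. Its means were 657 ± 139.9 CPM in cKO and 337 ± 60.2 CPM in Ctrl (SD, n = 2 each), a log2 change of 0.96 ± 0.22 (SE, adjusted p = 0.0411) in limma. PNPLA1 transfers linoleate to that hydroxyl group and so completes the acylceramide. Pnpla1 (ENSMUSG00000043286, chromosome 17, 28858411 to 28890309, plus strand) had 103 CPM in cKO 1 and 118 CPM in cKO 2, against 41.8 CPM in Ctrl 1 and 49.7 CPM in Ctrl 2. The log2 change was 1.26 ± 0.29 (SE, adjusted p = 0.0433) in limma, at 111 ± 10.6 CPM in cKO and 45.7 ± 5.58 CPM in Ctrl (SD, n = 2 each). Without Ctrl 1 neither passed (log2 change 0.77, adjusted p = 0.209 for Cyp4f39 and 1.14, adjusted p = 0.148 for Pnpla1, limma). An annotated antisense transcript, Pnpla1os, overlaps exons of Pnpla1, and reads of the 2 cannot be told apart: the sources used here do not give the strand setting of the counting.

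The partners of these enzymes had positive changes that did not pass limma. Abhd5, a coactivator of lipases that also stimulates PNPLA1, had 138 CPM in cKO 1 and 164 CPM in cKO 2, against 108 CPM in Ctrl 1 and 92.9 CPM in Ctrl 2, a log2 change of 0.58 ± 0.25 (SE, adjusted p = 0.299) in limma. Nipal4, a membrane protein of differentiated keratinocytes whose loss causes ichthyosis, had 223 CPM in cKO 1 and 221 CPM in cKO 2, against 155 CPM in Ctrl 1 and 92.9 CPM in Ctrl 2. The 2 cKO libraries of Nipal4 nearly coincided and the Ctrl libraries did not, so the change of 0.88 ± 0.26 (SE, adjusted p = 0.117) was 1.25 without Ctrl 1 (adjusted p = 0.0225, limma) and 0.51 without Ctrl 2 (adjusted p = 0.625). Abca12, the transporter that loads lipid into lamellar granules, had 1456 CPM in cKO 1 and 1733 CPM in cKO 2, against 762 CPM in Ctrl 1 and 1104 CPM in Ctrl 2. Its groups did not overlap, and the log2 change was 0.79 ± 0.22 (SE, adjusted p = 0.0945) in limma. edgeR with TMM called Abca12 and Nipal4 higher, DESeq2 called Abca12 (adjusted p = 0.0130) but not Nipal4 (adjusted p = 0.0929), and edgeR with library totals called neither. Per kilobase of coding sequence, Pnpla1 stood at 0.438 and 0.424 times Abhd5 in cKO 1 and cKO 2, against 0.226 and 0.313 times in Ctrl 1 and Ctrl 2.

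The 4 genes grouped as lipid oxidation encode enzymes that act on the linoleate of acylceramides or on its oxidised products. All were higher in both cKO libraries than in both Ctrl libraries, where 11.1% of all genes were, and Alox12b rose. ALOX12B and ALOXE3 act in sequence, the first making a hydroperoxide that the second converts to an epoxyalcohol. Alox12b (ENSMUSG00000032807, chromosome 11, 69156989 to 69169792, plus strand) had 295 CPM in cKO 1 and 267 CPM in cKO 2, against 146 CPM in Ctrl 1 and 128 CPM in Ctrl 2. Its means were 281 ± 19.7 CPM in cKO and 137 ± 12.4 CPM in Ctrl (SD, n = 2 each), a log2 change of 1.03 ± 0.23 (SE, adjusted p = 0.0362) in limma, and it did not pass without Ctrl 2 (log2 change 0.94, adjusted p = 0.0813). Aloxe3 lies next to it on chromosome 11, 69125896 to 69149115, with 7873 bases between the annotated genes and the same strand. Aloxe3 had 135 CPM in cKO 1 and 82.5 CPM in cKO 2, against 64.3 CPM in Ctrl 1 and 40.1 CPM in Ctrl 2. The change was as large as that of Alox12b, 1.04 ± 0.32 (SE, adjusted p = 0.134), but its libraries spread more and it did not pass limma; edgeR with TMM called it higher, and DESeq2 and edgeR with library totals did not (adjusted p = 0.123 and 0.119). Within a library and per coding kilobase, Alox12b exceeded Aloxe3 by 2.22 and 3.29 times in cKO 1 and cKO 2, against 2.30 and 3.25 times in Ctrl 1 and Ctrl 2, so the ratio was higher in replicate 2 of each genotype and overlapped between genotypes.

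The other enzymes of this group were higher in cKO as well. Sdr9c7, a dehydrogenase that acts on the epoxyalcohol, had 101 CPM in cKO 1 and 106 CPM in cKO 2, against 50.3 CPM in Ctrl 1 and 62.5 CPM in Ctrl 2. Ephx3, an epoxide hydrolase, had 253 CPM in cKO 1 and 343 CPM in cKO 2, against 149 CPM in Ctrl 1 and 209.9 CPM in Ctrl 2. Neither passed limma, with log2 changes of 0.88 ± 0.29 (SE, adjusted p = 0.157) for Sdr9c7 and 0.73 ± 0.24 (SE, adjusted p = 0.158) for Ephx3. edgeR with TMM called both higher, whereas DESeq2 (adjusted p = 0.134 for Sdr9c7 and 0.0830 for Ephx3) and edgeR with library totals called neither. Summed over the 4 genes, the libraries stood at 784 and 799 CPM in cKO 1 and cKO 2, against 409 and 441 CPM in Ctrl 1 and Ctrl 2, which is 1.86-fold higher in cKO by the means.

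**Figure D2:**
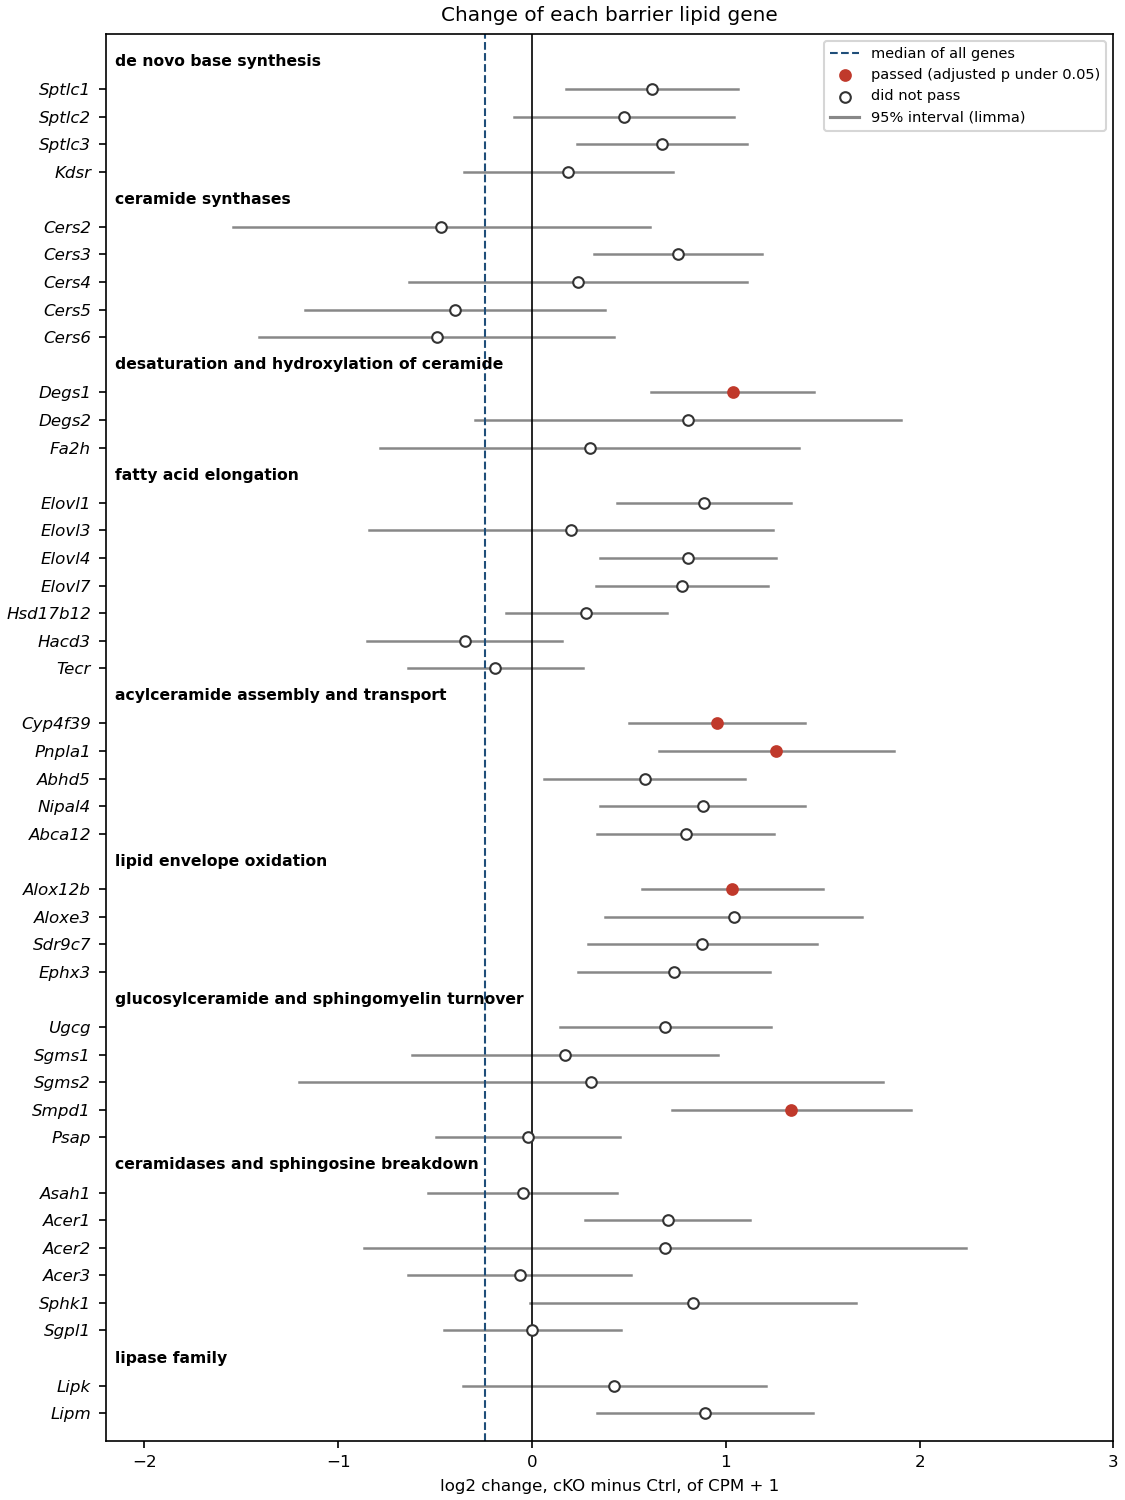
Log2 change of each barrier lipid gene, cKO minus Ctrl, on the scale of CPM + 1, with 95% intervals from limma; filled points passed at an adjusted p under 0.05 over all genes and the dashed line is the median of all genes (-0.24). Most points of acylceramide assembly and lipid oxidation lie between 0.58 and 1.26, and those of Psap, Asah1, Acer3 and Sgpl1 lie near 0, those of Psap, Asah1 and Acer3 with a sign that depends on the scaling.

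The enzymes that turn ceramide into storage or membrane forms and back were divided. UGCG adds glucose to ceramide for transport in lamellar granules. Ugcg had 118 CPM in cKO 1 and 132 CPM in cKO 2, against 77.1 CPM in Ctrl 1 and 76.9 CPM in Ctrl 2, without overlap, and its change of 0.69 ± 0.26 (SE, adjusted p = 0.227) did not pass limma. Smpd1, the acid sphingomyelinase that releases ceramide from sphingomyelin, rose. Smpd1 (ENSMUSG00000037049, chromosome 7, 105554360 to 105558389, plus strand) had 169.7 CPM in cKO 1 and 211 CPM in cKO 2, against 51.4 CPM in Ctrl 1 and 107 CPM in Ctrl 2. The log2 change of 1.34 ± 0.30 (SE, adjusted p = 0.0373) in limma was the largest of the 41 genes, at 191 ± 29.5 CPM in cKO and 79.4 ± 39.5 CPM in Ctrl (SD, n = 2 each), and it leaned on Ctrl 1: without that library it was 0.81 (adjusted p = 0.289) and without Ctrl 2 it was 1.86 (adjusted p = 1.01e-05).

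Psap, the precursor of the saposins that help lysosomal hydrolases reach their lipids, was abundant and overlapped between genotypes, with 2603 CPM in cKO 1 and 1706 CPM in cKO 2, against 2268 CPM in Ctrl 1 and 2017 CPM in Ctrl 2. Its log2 change was -0.02 ± 0.23 (SE, adjusted p = 0.975) in limma, with a 95% interval of -0.50 to 0.46, and its sign turned positive under every other scaling tried. Smpd1 to Psap, per kilobase of coding sequence, was 0.0579 and 0.110 in cKO 1 and cKO 2, against 0.0201 and 0.0473 in Ctrl 1 and Ctrl 2. The sphingomyelin synthase Sgms1 ran from 28.9 to 44.3 CPM over the libraries (limma, log2 change 0.17 ± 0.38, SE, adjusted p = 0.876). Sgms2, the other synthase, had only 1 to 4 reads per library, so a change could not be measured at this depth (95% interval -1.20 to 1.81).

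Of the 6 genes of ceramide breakdown none passed limma. Acer1 and Sphk1 were higher in both cKO libraries than in both Ctrl libraries, where 11.1% of all genes were. Acer1, an alkaline ceramidase of differentiated epidermis, had 493 CPM in cKO 1 and 505 CPM in cKO 2, against 292 CPM in Ctrl 1 and 322 CPM in Ctrl 2. Its groups did not overlap, and the change of 0.70 ± 0.21 (SE, adjusted p = 0.119) did not pass limma, although edgeR with TMM and DESeq2 called it higher. Asah1, the lysosomal acid ceramidase, had 179 CPM in cKO 1 and 152 CPM in cKO 2, against 157 CPM in Ctrl 1 and 184 CPM in Ctrl 2. Sgpl1, the lyase that ends sphingoid base breakdown, had 304 CPM in cKO 1 and 431 CPM in cKO 2, against 341 CPM in Ctrl 1 and 385 CPM in Ctrl 2. The libraries of both overlapped, with changes of -0.05 ± 0.23 (SE, adjusted p = 0.942) for Asah1 and 0.00 ± 0.22 (SE, adjusted p = 0.999) for Sgpl1 in limma and 95% intervals of -0.54 to 0.44 and -0.46 to 0.46. Acer3, a further alkaline ceramidase, ran from 73.1 to 88.5 CPM (limma, log2 change -0.06 ± 0.28, SE, adjusted p = 0.939). The signs of Asah1 and Acer3 turned positive under median, TMM and DESeq2 scaling. Acer1, per kilobase of coding sequence, exceeded Asah1 by 3.97 and 4.81 times in cKO 1 and cKO 2, against 2.68 and 2.52 times in Ctrl 1 and Ctrl 2. Sphk1, which phosphorylates sphingosine, had 42.4 CPM in cKO 1 and 39.9 CPM in cKO 2, against 26.8 CPM in Ctrl 1 and 19.2 CPM in Ctrl 2, from 12 to 30 reads per library, and its change of 0.83 ± 0.41 (SE, adjusted p = 0.358) did not pass limma. Acer2 had 1 to 7 reads per library and a 95% interval of -0.87 to 2.24.

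Of the lipase cluster on chromosome 19, Lipm and Lipk were measured. These genes encode relatives of lysosomal acid lipase that are found in differentiated keratinocytes. Lipm had 127 CPM in cKO 1 and 177 CPM in cKO 2, against 70.7 CPM in Ctrl 1 and 91.3 CPM in Ctrl 2, without overlap, and its change of 0.89 ± 0.27 (SE, adjusted p = 0.124) did not pass limma; edgeR with TMM called it higher, and DESeq2 and edgeR with library totals did not (adjusted p = 0.0760 and 0.0977). Lipk had 35.1 CPM in cKO 1 and 66.5 CPM in cKO 2, against 33.2 CPM in Ctrl 1 and 38.5 CPM in Ctrl 2, so that cKO 1 lay between the Ctrl libraries, and its change was 0.43 ± 0.38 (SE, adjusted p = 0.643) in limma. Exons of Lipm overlap those of Ankrd22 on the opposite strand.

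Levels within a genotype differed widely. Per kilobase of coding sequence, Ctrl means ran from 1658 CPM per kb for Elovl1, 1441 for Elovl4, 1282 for Psap, 631 for Degs1 and 618 for Elovl7 down to 18.1 for Cers2, 5.50 for Acer2 and 3.42 for Sgms2. Within each Ctrl library Elovl1 was above Elovl4 and Psap above Degs1, whereas the order of Elovl4 and Psap and that of Degs1 and Elovl7 differed between Ctrl 1 and Ctrl 2, so these neighbours are not resolved. In cKO the same 5 genes led, with 3072 CPM per kb for Elovl1, 2499 for Elovl4, 1289.4 for Psap, 1289.3 for Degs1 and 1045 for Elovl7. Of the 41 genes, 37 exceeded the median of all genes in Ctrl, 20.7 CPM per kb. The 4 most abundant by CPM took 48.9% of the footprints of the set in cKO and 48.8% in Ctrl.

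By role, the median log2 change was 0.96 for lipid oxidation, 0.88 for acylceramide assembly and transport, 0.81 for desaturation and hydroxylation, 0.66 for the lipases, 0.55 for base synthesis, 0.34 for ceramide breakdown, 0.30 for glucosylceramide and sphingomyelin turnover, 0.28 for elongation and -0.40 for ceramide synthases, against -0.24 for all genes. In such small roles a median can be the value of a single gene, Cers5 for the synthases and Degs2 for desaturation and hydroxylation. Summed footprints of the synthases, mostly Cers3, were higher in cKO. They stood at 788 and 697 CPM in cKO 1 and cKO 2, against 469 and 566 CPM in Ctrl 1 and Ctrl 2. Calls by role depended on the tool. Over all genes, limma called 0.368% higher, edgeR with TMM 1.58%, and DESeq2 2.66% of the 3119 genes to which it gave an adjusted p. DESeq2 gave none to Cers2, Cers5, Cers6, Degs2, Elovl3, Sgms1, Sgms2, Acer2, Sphk1 and Lipk. Its calls in the roles of these genes are therefore out of fewer genes than the role holds. Of the 4 genes of lipid oxidation limma called 1 higher, DESeq2 1 and edgeR with TMM 4, and of the 5 of acylceramide assembly and transport limma called 2, DESeq2 3 and edgeR with TMM 4. Of the 7 elongation genes limma called 0 and DESeq2 and edgeR with TMM 3 each, of the 4 of base synthesis limma and DESeq2 called 0 and edgeR with TMM 2, and of the 2 lipases limma and DESeq2 called 0 and edgeR with TMM 1. Of the 5 ceramide synthases and of the 6 genes of ceramide breakdown limma called 0 and the other tools 1 each. Of the 3 genes of desaturation and hydroxylation and of the 5 of glucosylceramide and sphingomyelin turnover each tool called 1. Sptlc1, which opens synthesis, and Sgpl1, which ends breakdown, stood in a ratio per coding kilobase of 1.32 and 1.04 in cKO 1 and cKO 2, against 0.759 and 0.771 in Ctrl 1 and Ctrl 2.

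Genes of the upper epidermal layers were also higher in cKO libraries. Granular layer markers, which held no barrier lipid gene of the list, summed to 20661 and 29215 CPM in cKO 1 and cKO 2, against 11678 and 15893 CPM in Ctrl 1 and Ctrl 2, with 6 of 15 called higher by limma and each cKO library above each Ctrl library in 13 of 15. Spinous markers summed to 204524 and 192831 CPM in cKO 1 and cKO 2, against 139645 and 128371 CPM in Ctrl 1 and Ctrl 2, with 0 of 10 called by limma (6 higher and 0 lower at an unadjusted p under 0.05; 4 called higher by edgeR with TMM and 5 by DESeq2). Basal markers summed to 11725 and 13456 CPM in cKO 1 and cKO 2, against 25560 and 22513 CPM in Ctrl 1 and Ctrl 2, with 2 of 11 called lower by limma and 1 by edgeR with TMM or DESeq2. Krt5, the basal keratin, fell, with 5580.4 CPM in cKO 1 and 5321 CPM in cKO 2, against 14751 CPM in Ctrl 1 and 11531 CPM in Ctrl 2 (limma, log2 change -1.26 ± 0.27, SE, adjusted p = 0.0293). Krt1, a spinous keratin, had 122970.0 CPM in cKO 1 and 109428 CPM in cKO 2, against 89091 CPM in Ctrl 1 and 74239.7 CPM in Ctrl 2 (limma, log2 change 0.51 ± 0.48, SE, adjusted p = 0.666). As a percentage of the summed granular markers, the barrier lipid genes stood at 84.5 and 61.6 in cKO 1 and cKO 2, against 93.9 and 80.9 in Ctrl 1 and Ctrl 2, and the genotypes overlapped. As a percentage of the summed spinous markers, most of which was Krt1 and Krt10, they stood at 8.53 and 9.33, against 7.85 and 10.02, which overlapped too. Relative to the summed basal markers the percentages were 149 and 134 in cKO 1 and cKO 2, against 42.9 and 57.1 in Ctrl 1 and Ctrl 2, without overlap. The part of a shift between layers in the higher footprints was not tested.

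Sums of some roles were also set against the granular markers. Acylceramide assembly and transport was 13.0% and 9.56% of the granular sum in cKO 1 and cKO 2, against 11.7% and 10.8% in Ctrl 1 and Ctrl 2, and lipid oxidation was 3.79% and 2.74%, against 3.50% and 2.77%, with overlap in both. Fatty acid elongation was 31.6% and 26.4% of the granular sum in cKO 1 and cKO 2, against 34.3% and 32.6% in Ctrl 1 and Ctrl 2. Both cKO libraries were lower there, cKO 1 by little. In the roles with overlap cKO 2 was also below both Ctrl libraries, so a difference between roles is not resolved.

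**Figure D3:**
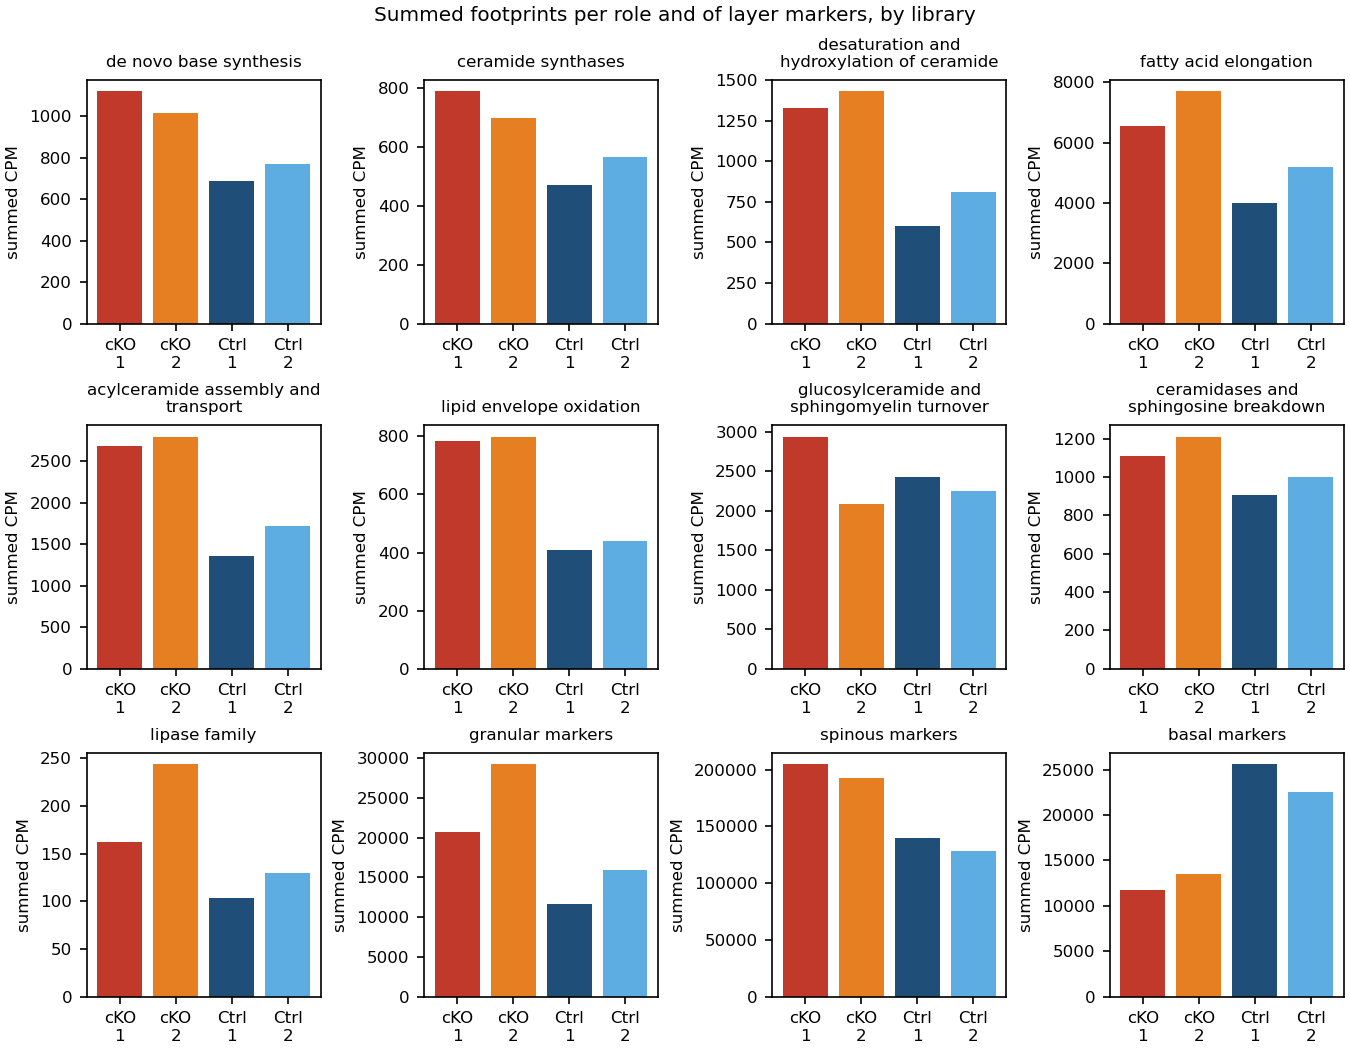
Summed CPM of the barrier lipid genes of each role and of granular, spinous and basal marker lists, with 1 bar per library and each axis starting at 0. The lipid oxidation sums are 784 and 799 CPM in cKO and 409 and 441 CPM in Ctrl; the sums of glucosylceramide and sphingomyelin turnover, in which Psap is the largest part, overlap between genotypes.

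A second pattern ran with the replicate number. Fa2h, Cers4, Elovl3, Degs2 and Acer2 were at least 2-fold higher in replicate 2 than in replicate 1 in both genotypes, 5 of the 41 genes where 2.41% of all genes were. Acer2 rests on 1 to 7 reads. Degs2, Fa2h, Cers4 and Acer2 were also higher in cKO than in Ctrl at each number, and Elovl3 was so in replicate 1 only. Elovl3 had 22.1 CPM in cKO 1 and 53.2 CPM in cKO 2, against 16.1 CPM in Ctrl 1 and 54.5 CPM in Ctrl 2, and Fa2h differed between replicates by more than any difference between genotypes at the same number. Sebaceous gland markers were likewise higher in replicate 2, though lower in cKO than in Ctrl at each number in both examples: Awat1, a wax synthase, had 11.1 CPM in cKO 1 and 65.2 CPM in cKO 2, against 18.2 CPM in Ctrl 1 and 88.1 CPM in Ctrl 2, and Scd1, a desaturase, had 97.8 CPM in cKO 1 and 329.8 CPM in cKO 2, against 127 CPM in Ctrl 1 and 377 CPM in Ctrl 2. Of 11 sebaceous markers listed, 8 were higher in both replicate 2 libraries than in both replicate 1 libraries, where 17% of all genes were, and 10 of the 41 barrier lipid genes were. The summed sebaceous markers, most of which was Krt79, ran from 1882 to 3236 CPM in cKO and from 3011 to 3521 CPM in Ctrl. The part of sebaceous cells in the levels of these 5 genes was not tested. No label says that equal numbers share an animal, a litter or a day. These 5 genes and the sebaceous examples were singled out after their values were seen.

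**Figure D4:**
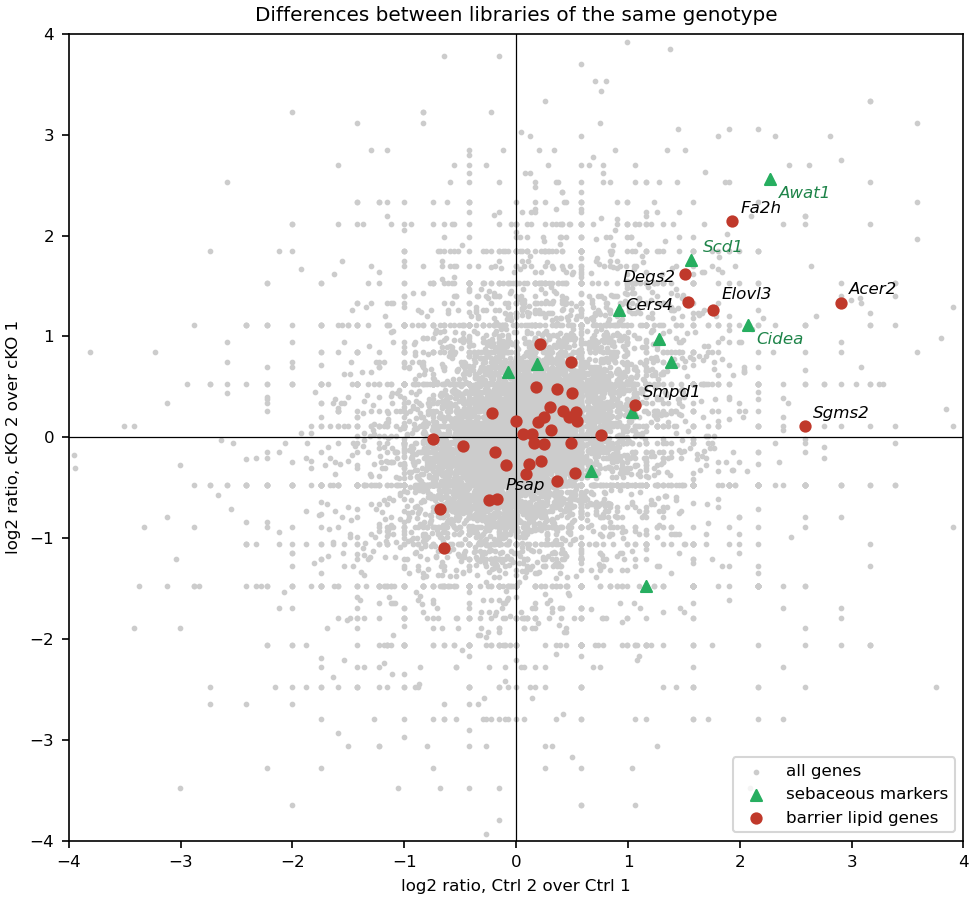
Log2 ratio of replicate 2 over replicate 1 in cKO (vertical) against that in Ctrl (horizontal) for all genes (grey; 6 lie outside the axes), sebaceous markers (green triangles) and barrier lipid genes (red points). Fa2h, Cers4, Elovl3, Degs2 and Acer2 lie above 1 on both axes, near the sebaceous markers Awat1, Scd1 and Cidea, whereas most barrier lipid genes lie near 0.

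Other genes of the pathway, taken from a list of its regulators, transporters and side branches, showed no call by limma. Of 51 that were measured, 0 passed in either direction. At an unadjusted p under 0.05 in limma, 7 were higher and 2 lower, against 361 and 1114 of all 10327 genes. Their median log2 change was 0.060 against -0.24 for all genes. Both cKO libraries were above both Ctrl libraries in 15 of the 51 (29.4%, against 11.1% of all genes). Both were below in 3 of the 51 (5.88%, against 34.1%). edgeR with TMM and DESeq2 each called 2 higher and 0 lower, Sgpp1, a phosphatase of sphingosine phosphate, and Dgat2, an enzyme of triacylglycerol synthesis, which are named after their values were seen. Sgpp1 had 616 CPM in cKO 1 and 689 CPM in cKO 2, against 316 CPM in Ctrl 1 and 442 CPM in Ctrl 2, and Dgat2 had 789.6 CPM in cKO 1 and 856 CPM in cKO 2, against 372 CPM in Ctrl 1 and 534 CPM in Ctrl 2, with log2 changes of 0.80 ± 0.22 (SE, adjusted p = 0.0876) and 0.88 ± 0.21 (SE, adjusted p = 0.0532) in limma. The genes with the highest changes among those of 20 CPM or more were the phospholipases Pla2g4e, 0.93 ± 0.38 (SE, adjusted p = 0.269), and Pla2g2f, 0.90 ± 0.34 (SE, adjusted p = 0.226), in limma. Those with the lowest were Col4a3bp, the ceramide transfer protein that carries ceramide to sphingomyelin synthesis, -0.79 ± 0.33 (SE, adjusted p = 0.275), and Acsl4, an acyl-CoA synthetase, -0.62 ± 0.28 (SE, adjusted p = 0.329), in limma. Col4a3bp had 35.1 CPM in cKO 1 and 41.2 CPM in cKO 2, against 72.8 CPM in Ctrl 1 and 60.9 CPM in Ctrl 2, so both cKO libraries were lower, while the changes of all 4 failed to pass limma.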

How the data were processed

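Ribosome-protected fragments of 25 to 35 nucleotides were sequenced from lysates made with cycloheximide, per the labels' protocols. The deposited values are CPM, 1 column per library, named WT for the libraries that the labels call Ctrl. GRCm38, fastp, HISAT2 and HTSeq are named in the submitters' processing notes without versions or settings, so handling of strand, of reads that match several genes and of duplicates is unknown. Dividing each library by the CPM of 1 read gave whole numbers (100% of values, tolerance 1e-06), which were used as reads per gene. Every listed gene had at least 1 read in each library. Reads per library ranged from 542074 to 933574 with medians of 14 to 27 per gene, which limits precision for low genes.

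The test was limma 3.58.1 (R 4.3.3) on log2(CPM + 1) with a variance trend, over 10327 genes with 1 CPM in at least 2 libraries (0 removed), with Benjamini-Hochberg adjustment. Fold changes are on that scale and understate changes of low genes. With 2 libraries a group an exact permutation test cannot go below p = 0.333, so none is given. edgeR 4.0.16 and DESeq2 1.42.0 on the recovered reads, other pseudocounts, filters and scalings, a replicate block and leaving out each library were alternatives. As a check of the code, the fits were also run on simulated counts with known changes. Those counts held no effect shared by equal replicate numbers, and no result here rests on them. Symbols were matched for 10323 IDs. Positions and coding lengths come from GENCODE M21 (GRCm38). Of the 41 genes, 11 share exonic sequence with a gene on the opposite strand, those named in the text and, with partners outside the table, Cers4, Abhd5, Elovl3, Sgms1, Acer1 and Sphk1.

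Genes, marker lists, tests and the naming rule were chosen with earlier results of these data known. Values per library are given for genes that passed, the 3 most abundant of each role and those without overlap whose change exceeded the median gene by 0.5 on the log2 scale. Other genes are given by ranges, except Cers2, Elovl3, Hacd3 and Tecr, whose libraries were added after their values were seen. The p-values do not measure the spread between these libraries alone. In limma, p-values, SEs and intervals combine a gene's own spread between libraries with a variance trend drawn from all genes. Without that trend the unadjusted p of Degs1 was 0.0177 in limma, against 3.98e-05 with it.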

Additional observations from a re-analysis of the deposited data

How the results depend on the processing

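With 2 libraries a genotype, calls moved with the processing. Of the genes tested among the 41, 0 were called lower under any alternative. Most alternatives called few of all genes lower, as given below. The 10 CPM filter tested 39, without Acer2 and Sgms2, and DESeq2 gave an adjusted p to 31, without Cers2, Cers5 and Cers6 among others. limma called 5 of the 41 higher, and 38 of all genes higher and 31 lower. Requiring 10 CPM in 2 libraries left 8301 genes and called 1 of the 41, and 14 higher and 9 lower of all. Median centring called 14 of the 41, and 107 higher and 8 lower. Without the variance trend 0 of any were called (1033 at an unadjusted p under 0.05; smallest adjusted p = 0.490). edgeR with TMM called 18 of the 41, and 163 higher and 13 lower; edgeR with library totals called 6, and 62 and 56; DESeq2 called 11, and 83 and 4 of the 3119 genes with an adjusted p. Leaving out each library in turn, 0 to 8 of the 41 were called, and 0 to 104 higher and 0 to 44 lower of all, where a lone library was taken to vary like the other group. The median of the 41 genes relative to all genes was 0.92, 0.81 with a pseudocount of 5, and 0.72 to 0.99 without a library. Causes were not tested.

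With a replicate block added to limma, 19 of the 41 were called higher (the 18 of edgeR with TMM and Ugcg), and 257 higher and 582 lower of all. The numbers share nothing else in the labels, and over 5164 genes the deviations of replicate 1 from its genotype's mean had r = 0.397 between cKO and Ctrl, a hint from 2 pairs only.

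Some log2 changes that did not pass turned sign. Psap was 0.19 with median centring, 0.26 with TMM, 0.0069 with library totals and 0.24 with DESeq2. Over the same scalings without library totals, Tecr was 0.026, 0.053 and 0.038, Asah1 was 0.17, 0.21 and 0.19, and Acer3 was 0.15, 0.18 and 0.17. Leaving out 1 library gave ranges across 0 for Kdsr (-0.12 to 0.50), Cers4 (-0.52 to 0.99), Cers6 (-1.02 to 0.033), Fa2h (-0.76 to 1.35), Elovl3 (-0.65 to 1.05), Tecr (-0.46 to 0.081), Sgms1 (-0.088 to 0.42), Sgms2 (-0.62 to 1.22), Psap (-0.33 to 0.28), Asah1 (-0.17 to 0.071), Acer2 (-0.37 to 1.75), Acer3 (-0.20 to 0.072), Sgpl1 (-0.25 to 0.25) and Lipk (-0.027 to 0.88). Sgms2, Acer2 and Cers2 had under 10 reads in a library, where changes could not be resolved.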
